A study of Rattus norvegicus with 20 samples.

Results

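Adiponectin (Adipoq) and leptin (Lep) are the hormones by which fat cells report on fat stores and fuel use. The genes were taken by their Ensembl identifiers, ENSRNOG00000001821 for Adipoq and ENSRNOG00000005924 for Lep, 2 of the 32883 genes in the deposited table. Both rows were present and both passed the filter on low counts. RNA was sequenced from abdominal white adipose tissue and from gastrocnemius, a mixed calf muscle, of 10 rats of a Fischer 344 x Brown Norway cross aged 8 months, with 10 libraries per tissue and no treatment named. A shared number marks the fat and muscle of a single rat. The labels call every sample male, while the design text counts 5 females among the rats, so no comparison by sex was made.

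Adiponectin is secreted almost entirely by mature adipocytes, assembles through its collagen-like stretch into multimers, and acts on liver and muscle through its receptors to favour fatty acid oxidation and insulin sensitivity. Leptin, also an adipocyte hormone, acts on receptors in the hypothalamus to restrain food intake, and its messenger RNA in fat is known to follow fat cell size and feeding. In obesity the circulating hormones are known to move in opposite directions. Both genes depend in adipocytes on factors of the C/EBP family.

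The sequences just upstream of the genes are shown because both genes are active in the same adipose libraries while their levels in muscle differ widely. They come from RefSeq, build GRCr8, whereas the counts were made on rn6. Stretches start 250 bases before a transcript start of each gene and stop before the outermost annotated gene start, and capitals mark matches to 4 motifs described next. The Adipoq stretch is chr11:91240245-91240419 on the minus strand and the Lep stretch is chr4:58626288-58626528 on the plus strand.
Adipoq: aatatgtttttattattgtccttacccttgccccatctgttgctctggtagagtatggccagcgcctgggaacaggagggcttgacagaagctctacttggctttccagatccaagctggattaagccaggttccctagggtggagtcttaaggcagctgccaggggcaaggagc
Lep: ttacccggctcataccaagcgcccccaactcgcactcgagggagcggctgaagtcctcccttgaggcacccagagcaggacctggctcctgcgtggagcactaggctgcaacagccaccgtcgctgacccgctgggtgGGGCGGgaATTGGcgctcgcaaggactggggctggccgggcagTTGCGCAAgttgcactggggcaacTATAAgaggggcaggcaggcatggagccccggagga

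The motifs searched on both strands of the windows of 300 bases were TATAA (a form of the TATA box), CCAAT (the CCAAT box), GGGCGG (the GC box) and the palindrome TTGCGCAA, a form of the site that C/EBP factors bind. No matches overlapped. In the Lep window TATAA began 45 bases before the transcript start, TTGCGCAA 69, CCAAT on the opposite strand 104 and GGGCGG 112. The Adipoq window held CCAAT alone, on opposite strands at 69 and 42 bases before its start. Both matches lie inside the outermost bounds of the annotated gene, so outside the printed stretch, unlike those of Lep. Of 33469 rat promoter windows of this length, 26.2% held TATAA, 37.5% CCAAT, 33.1% GGGCGG and 0.170% TTGCGCAA. The matches describe letters, not bound sites. GC content over the whole window was 53.0% for Adipoq and 64.7% for Lep, beside a median of 51.7% over all windows.

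Library totals ran from 11067641 to 25904168 counts in adipose tissue and from 8446548 to 20141701 in muscle. Levels are given as CPM, counts per 1000000 of a library total corrected by the trimmed mean of M values (TMM), a factor that offsets transcripts concentrated in few genes. Adipose libraries 1, 3 and 5 held more of 170 muscle-restricted genes than the rest, with medians of 1.36%, 1.58% and 0.433% relative to muscle, against 0.0228% to 0.132% in the other 7. In adipose library 3 the 10 most abundant genes took 32.6% of the counts, against 9.50% to 21.0% elsewhere. Adipose library 4 had the largest median deviation from the tissue mean, 0.353 on the log2 scale. Several results are also given without library 4. Without libraries 1, 3 and 5 together, the fold changes, the spreads and the relations within fat were computed again. The relations between the tissues were not. Other markers of cell types were not analysed here, because no table used here pairs the Ensembl identifiers with symbols.

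The first question was how strongly adipose tissue expressed the hormones and how much the libraries differed. Adipoq took 0.283% of all adipose counts in the lowest library, 0.698% at the median and 0.959% in the highest, so that in some libraries nearly 1 count in every 100 came from this single hormone. Its level was 1430 CPM at the lowest, 4709 at the median and 6174 at the highest, with a mean of 4321 ± 1509 (SD, n = 10). Library 4 was lowest with 1430 CPM and library 3 next with 2612, while the other 8 lay between 3401 and 6174. As a share of counts, library 3 at 0.315% was close to library 4 at 0.283%, so the gap between them depended on the scaling.

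Lep took 0.0150% to 0.0466% of adipose counts, with a median of 0.0181%. Its level was 99.8 CPM at the lowest, 122 at the median and 235 at the highest, with a mean of 132 ± 40.0 (SD, n = 10). Library 4, the lowest for Adipoq, was the highest for Lep, and the next library stood at 152 CPM. The plot of levels per library shows both patterns. In these bulk samples, fewer cells of a type and less RNA per cell cannot be told apart.

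**Figure D1:**
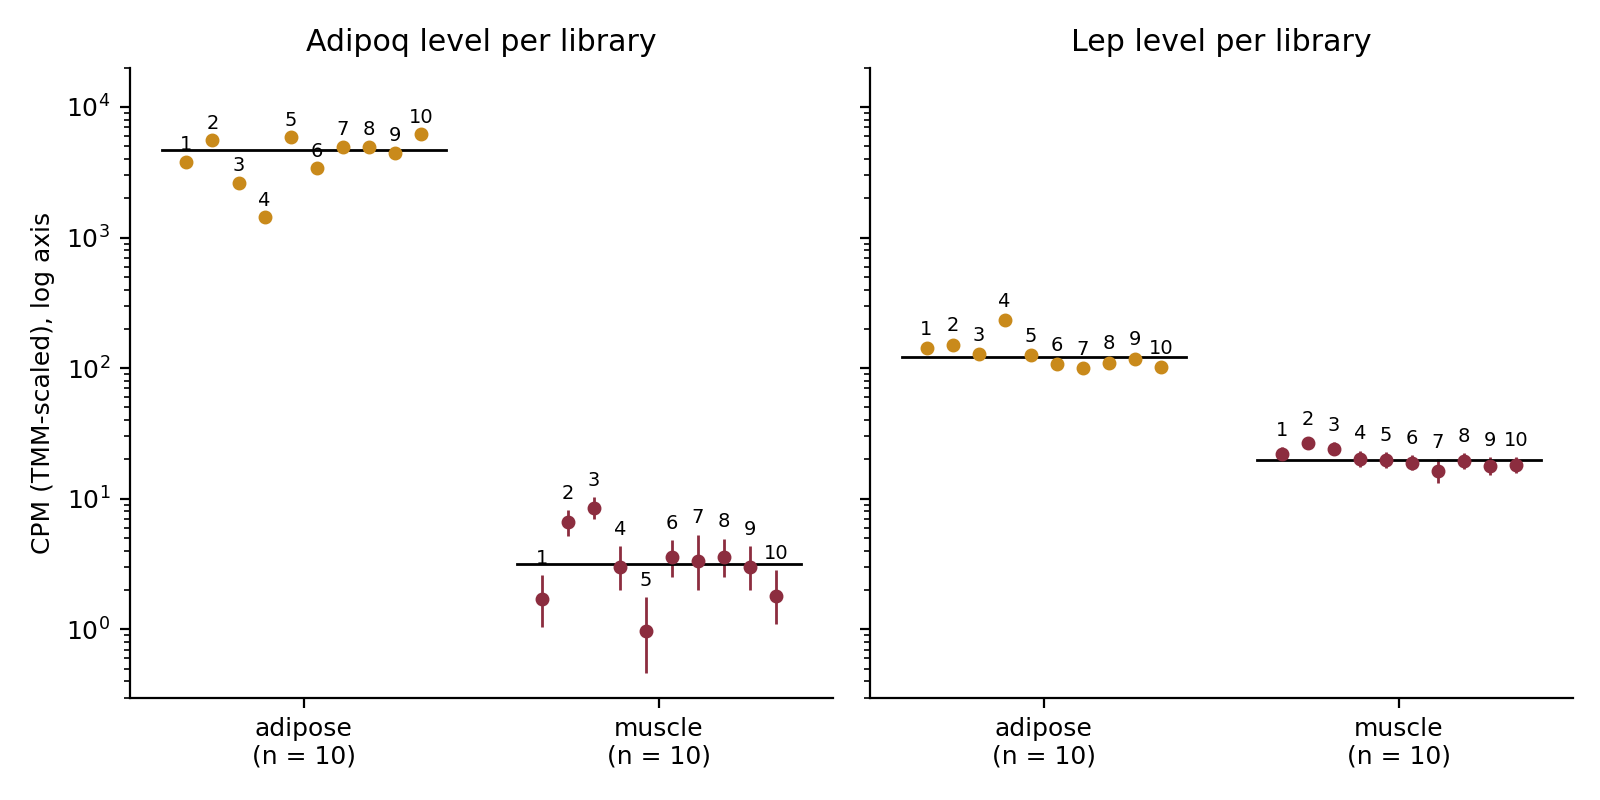
Adipoq (left) and Lep (right) in each library, as TMM-scaled CPM on a log axis; points are libraries numbered by animal, black lines are medians of 10 libraries, and bars are exact 95% Poisson intervals that cover counting error only. Adipose library 4 is lowest for Adipoq (1430 CPM) and highest for Lep (235 CPM), and muscle and adipose libraries do not overlap for either gene.

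The adipose libraries differed in the level of both hormones. With a single adipose library per rat, differences between rats, pieces of fat and library preparations cannot be told apart. The SD of log2 CPM over the adipose libraries was 0.65 for Adipoq and 0.37 for Lep, and counting error, at most 0.0077 and 0.035 in any library, adds little at this depth. Among 908 genes that averaged 100 CPM or more in adipose tissue, 89.1% had a smaller SD than Adipoq and 51.9% a smaller SD than Lep, around a median of 0.36. With library totals these shares were 90.0% and 75.8%, so the place of Lep depended on the scaling. Over all 10 libraries Adipoq varied more between libraries than most of these genes under both scalings. With TMM factors and without library 4 the SDs were 0.41 and 0.21, and 72.5% and 22.7% of these genes lay below. Without libraries 3 and 4 they were 0.30 and 0.22. No share of genes was computed without both, so the place of Adipoq among these genes then is not known.

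The SD of Lep was smaller than that of Adipoq by 0.82 on a log2 scale, past the test by a small margin (exact permutation test exchanging the centred values within libraries, two-sided, p = 0.0449, n = 10). The difference was no longer past it when library 2, 3, 4, 5, 6, 8 or 10 was left out (exact permutation p up to 0.160) or with library totals in place of TMM factors (a difference of -0.37, exact permutation p = 0.209).

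**Figure D2:**
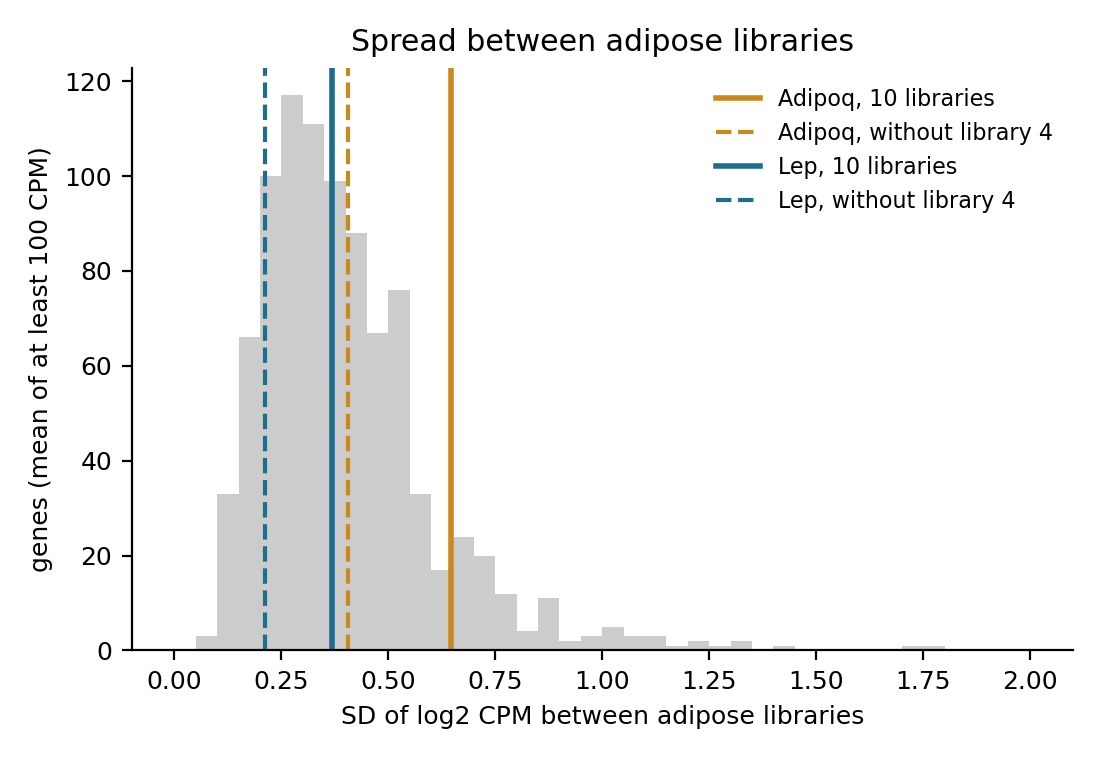
Histogram of the SD of log2 CPM between adipose libraries for 908 genes averaging 100 CPM or more (bin width 0.05); vertical lines mark Adipoq and Lep with all 10 libraries (solid) and without library 4 (dashed). Adipoq lies in the right part at 0.65 and moves to 0.41 without library 4, and Lep moves from 0.37 to 0.21.

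The relation of the hormones was examined across the adipose libraries. Their log2 levels had Pearson's r = -0.72 (permutation test, two-sided, p = 0.0355, adjusted p = 0.0710 over 8 relations) and Spearman's rho = -0.43 (permutation p = 0.217, adjusted p = 0.348). Neither passed after adjustment. Without libraries 3 and 4, the farthest from the median of Adipoq, r was -0.024 (exact permutation p = 0.955, n = 8). The negative relation rests on library 4: without it r was -0.13 (exact permutation p = 0.736, n = 9). With library totals r was -0.46 (permutation p = 0.180), and 0.32 when library 4 was also left out (exact permutation p = 0.428, n = 9).

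**Figure D3:**
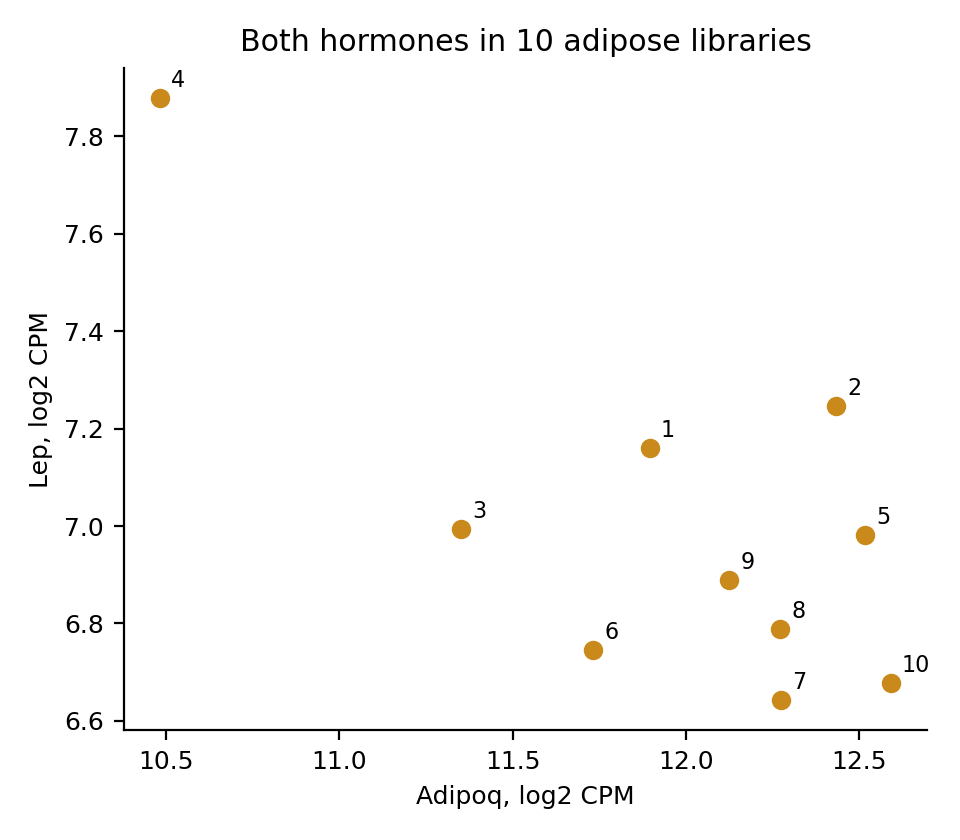
Lep against Adipoq in the 10 adipose libraries, both as log2 CPM, numbered by animal. Library 4 stands alone at the upper left, and the other 9 libraries show r = -0.13.

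The ratio of the hormones within a library needs no scaling between libraries. It is not corrected for transcript length, so only its differences between libraries were read. The log2 ratio of Lep to Adipoq counts was -5.92 at the lowest, -5.21 at the median and -2.60 at the highest, with a mean of -4.97 ± 0.95 (SD, n = 10). Adipose library 4 held 6.08 Adipoq counts for each Lep count, library 3 held 20.5, and the other 8 held 26.7 to 60.4.

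Adipoq moved with other genes that are nearly restricted to adipose tissue. These were 153 genes beside Adipoq itself with a median of at least 20 counts per 1000000 of the library total in adipose tissue and at least 100 times the muscle median. Across adipose libraries, Adipoq followed the median level of this set with r = 0.89 (permutation p = 0.00333, adjusted p = 0.0206) and rho = 0.81 (permutation p = 0.0066, adjusted p = 0.0176). Without libraries 2 and 4, the farthest from the set's median, r was 0.60 (exact permutation p = 0.118, n = 8), and without library 4 alone 0.62 (exact permutation p = 0.0741, n = 9). With library totals r was 0.95 (permutation p = 0.00011) and, without library 4, 0.92 (exact permutation p = 0.00112, n = 9). Adipoq and the set share the scaling of each library. In library 3 the set stood at 0.972 times its mean with TMM factors and at 0.746 times with library totals. The part of the scaling in these relations was not tested.

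In adipose library 4 the set stood at 0.478 times its mean over the adipose libraries, the lowest of the 10, beside 0.845 to 1.23 in the rest. Lep had no such positive relation with the set: r was -0.72 (permutation p = 0.0689, adjusted p = 0.110) and rho -0.30 (permutation p = 0.407, adjusted p = 0.487). Without library 4 this r was 0.19 (exact permutation p = 0.625, n = 9), of the opposite sign. Given the level of the set, the relation of Adipoq and Lep had r = -0.27 (permutation p = 0.447). Library 4 was lowest for the set and for Adipoq and highest for Lep, so this value cannot separate the set from that library. The part of the set's level in the hormone results was not tested further.

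Among 10151 other genes that averaged 5 CPM or more in adipose tissue, the one most like Adipoq over the 10 adipose libraries was ENSRNOG00000022239, with r = 0.98, and r = 0.94 without library 4. It reached 1042 ± 306 CPM in fat and 3.19 ± 1.46 CPM in muscle (SD, n = 10), so it shared with Adipoq a near absence from muscle that the choice did not use. The gene most opposed to Adipoq was ENSRNOG00000019451, with r = -0.96, and -0.89 without library 4. It stood at 228 CPM in library 4 and at 28.3 to 92.1 in the other 9 libraries.

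The gene most like Lep was ENSRNOG00000008246, with r = 0.99, and 0.97 without library 4. It stood at 22.4 CPM in adipose library 4 and at 4.84 to 9.94 in the other 9, and its muscle level of 6.75 ± 1.68 CPM was close to its adipose level of 8.20 ± 5.22 (SD, n = 10). Unlike Lep, it did not differ between the tissues past the test (edgeR adjusted p = 0.309). The gene most opposed to Lep was ENSRNOG00000005323, with r = -0.93, and -0.83 without library 4. These are descriptions over 10 libraries that share their scaling factors. Among the same genes, 3.54% had a lower r with Adipoq than Lep had over all 10 libraries, around a median of 0.067. Without library 4 the r of Lep with Adipoq was -0.13, and no share was computed.

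The next comparison, muscle against adipose tissue, asked how far each hormone's RNA was confined to fat. Both were far higher in adipose tissue, and by very different factors. In muscle Adipoq stood at 0.962 CPM at the lowest, 3.18 at the median and 8.54 at the highest, from 10.5 to 101.83 deposited counts per library. Muscle libraries 3 and 2 were highest with 8.54 and 6.58 CPM and library 5 lowest. The highest muscle library was below the lowest adipose library, at 1430 CPM.

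Lep in muscle stood at 16.4 CPM at the lowest, 19.8 at the median and 26.9 at the highest, from 88.17 to 331.12 deposited counts per library. Muscle library 2 was highest and library 7 lowest. All 10 muscle libraries lay below the lowest adipose value of 99.8 CPM. The exact 95% Poisson interval of the shallowest count, in muscle library 7, was 13.2 to 20.3 CPM, which covers counting error only.

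Muscle over adipose, the log2 fold change of Adipoq was -10.22 (SE 0.46, adjusted p = 9.90e-15 by edgeR's quasi-likelihood test with Benjamini-Hochberg adjustment), a 1192-fold difference. That of Lep was -2.70 (SE 0.15, edgeR adjusted p = 2.37e-13), a 6.49-fold difference. Of 13806 genes tested, 79.8% differed between the tissues, 42.2% were higher in adipose tissue and 24.5% were higher there with no overlap of libraries, so passing the test is common for any gene here. The size sets Adipoq apart: 11 of the 13806 genes had a fold change further towards adipose tissue, against 1583, or 11.5%, for Lep. With library totals, which shift the median of all genes by -1.30, the log2 fold changes were -11.49 and -4.03, or 2884-fold and 16.3-fold.

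The ratio of the hormones differed between the tissues. In muscle the log2 ratio of Lep to Adipoq counts was 1.51 at the lowest, 2.51 at the median and 4.30 at the highest, with a mean of 2.74 ± 0.83 (SD, n = 10). Every muscle library lay above every adipose library. Within animals the ratio was higher in muscle by 7.71 ± 1.36 on the log2 scale (SD, n = 10) and in the same direction in 10 of 10 rats (two-sided exact permutation test by sign flips, p = 0.00195, the smallest value these 10 pairs can give). With no overlap of the libraries this p was fixed in advance. The difference restates the unequal fold changes of the genes and is no separate result.

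The residual level in muscle was set against the adipose level. Adipoq in muscle was 0.0835% ± 0.0533 of its mean adipose level (SD, n = 10), from 0.0223% to 0.198%. The median over the 153 adipose-restricted genes was 0.480% to 0.995% of their adipose level in the same libraries, and in each library between 117 and 134 of these genes stood above Adipoq. With library totals the mean for Adipoq was 0.0346%. Among the 908 genes with at least 100 CPM in adipose tissue, 7 were lower in muscle relative to fat than Adipoq.

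Lep in muscle was 15.5% ± 2.38 of its mean adipose level (SD, n = 10), from 12.4% to 20.3%. With library totals it was 6.16% ± 1.34. The adipose-restricted genes were chosen for muscle levels below that of Lep relative to fat, so the place of Lep above them is fixed by the choice and is no result. Of the 908 abundant adipose genes, which were not chosen on muscle, 27.2% had a lower muscle level relative to fat than Lep, and their median was 51.1%. Lep was therefore neither among the genes shared evenly by the tissues nor as confined to fat as Adipoq.

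**Figure D4:**
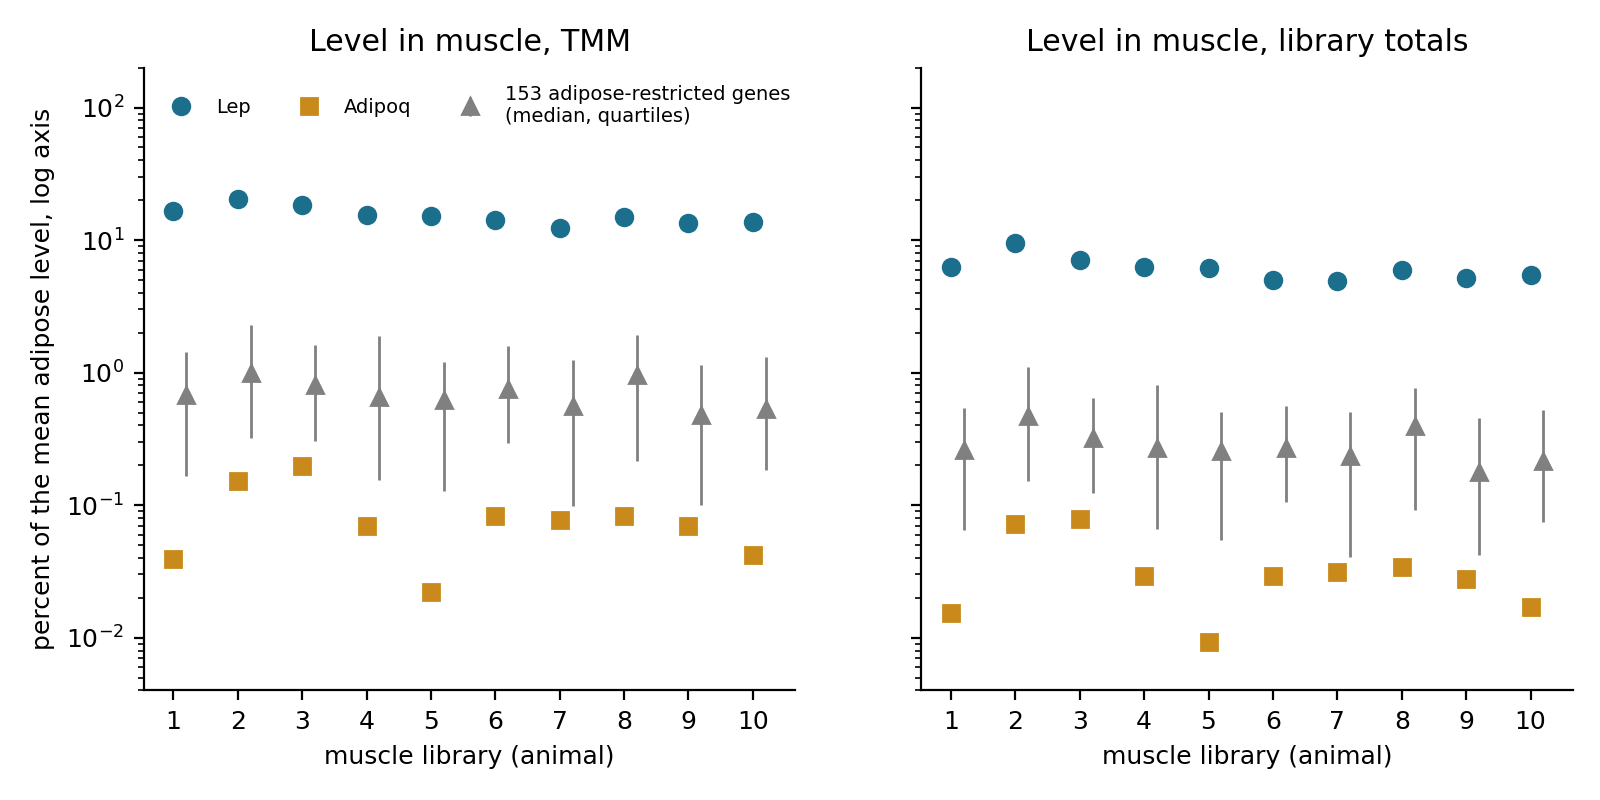
Level in each muscle library as a percent of the mean adipose level, on a log axis, with TMM factors (left) and library totals (right); circles are Lep, squares Adipoq, triangles the median of 153 adipose-restricted genes with bars from the lower to the upper quartile. In all 10 libraries Adipoq lies below the lower quartile of the set under either scaling, while the place of Lep above the set is fixed by how the set was chosen.

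Across muscle libraries, Adipoq had r = 0.80 with the adipose-restricted genes (permutation p = 0.00516, adjusted p = 0.0206) and rho = 0.83 (permutation p = 0.00487, adjusted p = 0.0176). These genes were chosen for muscle medians at least 100 times below those in fat, so their levels in muscle are low. The part of counting error in these relations was not tested. Without libraries 2 and 3, the farthest from the set's median, r for Adipoq was 0.63 and no longer past the test (exact permutation p = 0.0980, n = 8). Lep in muscle had r = 0.72 with the set (permutation p = 0.0168, adjusted p = 0.0449) and rho = 0.59 (permutation p = 0.0800, adjusted p = 0.160). For Lep the relation rests on libraries 2 and 3: without them r was 0.16 (exact permutation p = 0.702, n = 8), and without library 2 alone 0.49 (exact permutation p = 0.188, n = 9). With library totals r with the set was 0.75 for Adipoq (permutation p = 0.00957) and 0.84 for Lep (permutation p = 0.00772). The rho was then 0.83 for Adipoq (permutation p = 0.00487) and 0.52 for Lep (permutation p = 0.132). Adipoq and Lep had r = 0.47 with each other in muscle (permutation p = 0.165, adjusted p = 0.192) and rho = 0.25 (permutation p = 0.492, adjusted p = 0.492).

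The last comparison asked whether a rat with a high hormone level in fat also had a high level in muscle. For Adipoq it did not pass the test, with r = -0.30 (permutation p = 0.392, adjusted p = 0.392) and rho = -0.28 (permutation p = 0.426, adjusted p = 0.487). Without animals 3 and 4, r was -0.18 (exact permutation p = 0.670, n = 8).

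For Lep the ranks agreed between the tissues. Spearman's rho was 0.84 (permutation p = 0.00367, adjusted p = 0.0176), while r was 0.47 (permutation p = 0.168, adjusted p = 0.192). Animal 2 was highest in muscle and second in fat, and animal 7 was lowest in both tissues. Animal 4, highest in fat with 235 CPM, was intermediate in muscle with 20.3 CPM. Without it r was 0.86 (exact permutation p = 0.00269, n = 9), and without animals 2 and 4, the farthest from the median in fat, 0.77 (exact permutation p = 0.0232, n = 8).

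The rank relation of Lep was not past the test with library totals, where rho was 0.55 (permutation p = 0.104) and r 0.31 (permutation p = 0.326), or r 0.55 without animal 4 (exact permutation p = 0.119, n = 9). With TMM factors, 37 of 8291 genes with at least 5 CPM in both tissues, or 0.446%, had a higher rho between the tissues than Lep, around a median of 0.13. With library totals 7.21% had. By Pearson's r, 15.5% of these genes lay above Lep with TMM factors and 26.1% with library totals. Lep in muscle had r = 0.72 with the adipose-restricted genes there, a relation that rests on libraries 2 and 3. The part of those transcripts in the relation of Lep between the tissues was not tested.

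**Figure D5:**
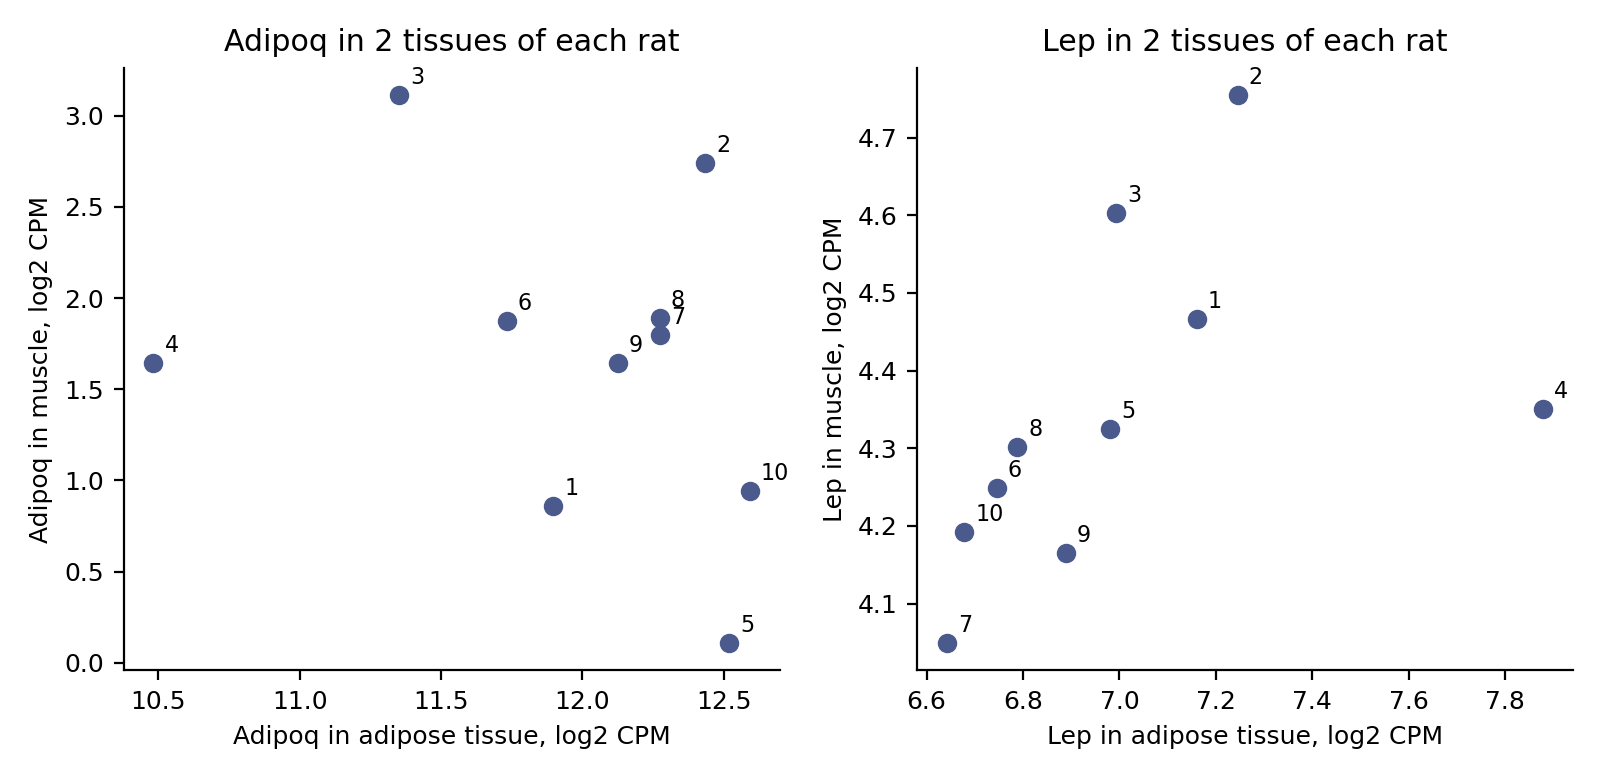
Level in muscle against level in adipose tissue of the same rat for Adipoq (left) and Lep (right), as log2 CPM with TMM factors, numbered by animal. For Lep r was 0.47 over all 10 rats and 0.86 without animal 4. For Adipoq it was -0.30 over all 10 rats and -0.52 without animal 4.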

How the data were processed

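Messenger RNA of 20 libraries was counted per gene. The authors deposited expected counts, not normalised and in part not whole (25.3% of values above 0 were whole within 0.005). Per the submitters' processing notes, bcl2fastq, STAR, featureCounts and the build rn6 were used, without roles. The gene annotation, strandedness and handling of reads with several alignments are not stated there. Per the labels' protocols, 300 ng of RNA entered a library. Reads carry no molecular identifiers, so intervals cover counting error only.

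Counts were rounded and analysed in R 4.3.3 with edgeR 4.0.16: filterByExpr, TMM factors, the robust quasi-likelihood test, and Benjamini-Hochberg adjustment over all genes tested; the SE is the log2 fold change divided by the root of F. Log2 CPM used a prior count of 2. Relations used 100000 resamples, or all pairings under 10 libraries, with adjustment over 8 relations. The fit was run on simulated counts with few and balanced changes, which cannot show how it performs for this tissue contrast. Alternatives were other factors and filters, an animal block, DESeq2 1.42.0, limma-voom (limma 3.58.1), and libraries left out. The numbers pair libraries of the same animal, per the design text; deviations of such libraries over 8291 genes had a median correlation of 0.12 (range -0.22 to 0.42), against -0.025 between animals. The labels name no batch.

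The genes, lists and libraries left out were chosen with earlier results of these data known. The sign-flip test of the ratio, the shares of all genes beside Lep and Adipoq, the alternatives to the relations with the adipose-restricted genes in fat and between the hormones in muscle, the values with library totals that also leave out animal 4, and the SDs without libraries 3 and 4 were added after seeing the data. Named genes other than the hormones were those with the highest and the lowest r with each hormone. Lists of adipokines, receptors, signalling genes and cell type markers could not be run, since 0 identifiers matched a symbol.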

Additional observations from a re-analysis of the deposited data

Results flagged for a closer look

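For 8 groups of 10 libraries (the log2 level of each hormone and the log2 ratio of Lep to Adipoq in each tissue, and each hormone's percent in muscle), the gap between each extreme library and the next was divided by the range of the group. It exceeded Dixon's critical value of 0.466 in 2 cases, where chance gives about 1 in 20 groups. Both cases were adipose library 4 and share the same Lep count. Its Lep level was 7.88 in log2 CPM, against 7.25 in the nearest library, a gap of 0.512 of the range. Its log2 ratio of Lep to Adipoq was -2.60, next to -4.36, a gap of 0.530 of the range. Its Adipoq level, 10.48 next to 11.35, was the lowest, with a gap of 0.412, below the critical value. Of 10152 genes with at least 5 CPM in adipose tissue, 17.2% were highest and 25.7% lowest in this library; among the 10 adipose libraries those shares ran from 2.49% to 18.9% and from 1.99% to 25.7%.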

How the results depend on the processing

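The fold changes of Adipoq and Lep kept direction and call in every alternative fit run. Leaving out each animal in turn gave -10.48 to -10.05 and -2.73 to -2.56. With the animal as a replicate block they were -10.33 and -2.66, with 10990 genes called beside 11011, and the block changed no call of the hormones. With library totals 85.8% of the called genes were higher in adipose tissue, beside 52.9% with TMM factors. With library totals the relation of Adipoq and Lep in fat was -0.46, the SD of Lep 0.48, the log2 ratio of the SDs -0.37, and the muscle level of Lep 6.16% of that in fat. Without adipose libraries 1, 3 and 5, chosen from earlier results, the relation was -0.80 (exact permutation p = 0.0881, n = 7) and the ratio of the SDs -0.69. The SDs were then 0.72 for Adipoq and 0.44 for Lep, and the log2 fold changes -10.21 and -2.64. Relations of Adipoq and Lep in fat with the adipose-restricted genes were then 0.96 and -0.73. Given these genes, the relation of Adipoq and Lep in fat was -0.27. Without muscle library 2 the relation of Lep in muscle with these genes was 0.49.

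With each library left out in turn, the relation of Adipoq and Lep in fat ran from -0.83 to -0.13, that of Lep between the tissues from 0.37 to 0.86, and those of Adipoq and Lep with the adipose-restricted genes in fat from 0.62 to 0.96 and from -0.89 to 0.19. The relation of Lep in muscle with these genes ran from 0.49 to 0.81. The SDs ran from 0.41 to 0.69 for Adipoq and from 0.21 to 0.39 for Lep, and the log2 ratio of the SDs from -0.95 to -0.73. Where a value changed its side of a threshold, the cause was not tested. Adipoq in muscle rests on 10.5 to 101.83 counts per library, which limits its precision.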

Other observations

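The deposited counts of Lep in muscle were not whole in any of the 10 libraries, and 6 of them ended in 0.17. For Adipoq in muscle 6 of the 10 values were whole, within 0.005. How reads that fit several places were counted is not given in the sources used here, and how many counts of either gene such reads supply was not tested.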
